A study of Mus musculus with 24 samples.

Results

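A set of 10 genes of the developing nervous system was followed across 8 lists of H3K9ac peaks from mouse embryoid bodies. They are Rfx4, Rtn1, Ncam1, Pou3f2, Msi1, Pax6, Pax3, Sox1, Nes and Rtn4rl2, and they are 10 of 21883 protein-coding genes in the gene table. They were chosen by measured values, partly because peaks at their ends differed between Gcn5 genotypes, so that difference is described below with no test and supports nothing. The values used were the presence, position and covered length of peaks within 1000 bp of either end of the annotated gene, in each clone. The name "neural genes with uneven acetylation" holds for 9 of the 10 at their ends, since Nes had a peak there in all 8 libraries, and Msi1, Pax6 and Sox1 also held regions in the gene that were marked in all 8.

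The cells were day 5 embryoid bodies, aggregates in which C57BL/6 mouse embryonic stem cells differentiate. Clones 4_1 and 6_1 were homozygous for the floxed Gcn5 allele (fx/fx), and clones 4_C2 and 6_C4 were Gcn5-/- (null). Clones 4_1 and 4_C2 are called pair 4 here, and clones 6_1 and 6_C4 pair 6, after the number in their names. Each clone had 2 replicates, so each genotype was 4 libraries from 2 clones. Replicates of 1 clone have a common history, and nothing in the labels says that they came from separate cultures. The sources used here do not give how Gcn5 was removed from the null clones, and a difference between genotypes cannot be told apart from a difference between these clones. The series has 24 samples, of which 16 of total H3 or input DNA were not used here.

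Acetylation of lysine 9 on histone H3 (H3K9ac) marks nucleosomes around the starts of active genes. Gcn5, encoded by Kat2a, is the catalytic subunit of the SAGA and ATAC complexes and is one of the enzymes that place this mark. When embryonic stem cells form embryoid bodies, some cells take on a neural progenitor fate, switching on transcription factors of the Sox, Pax, POU and RFX families and then cytoskeletal, membrane and adhesion proteins of neural cells.

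A deposited list gives the position of each peak and no height, so 2 measurements were possible: whether a library had a peak, and how many base pairs its peaks covered. Lists of pair 6 were longer, with 17849 to 20809 peaks against 12041 to 15315 in pair 4, and the shortest was 4_C2 replicate 2. Sequencing depth is unknown for every library, and a deeper library can give more and wider peaks. Marker genes of several fates had peaks at their ends: 4 to 6 of 8 neural markers in fx/fx and 3 to 6 in null libraries, 2 to 5 of 5 mesoderm markers in fx/fx and 1 to 4 in null, 0 to 3 of 4 endoderm markers in both, 3 to 4 of 5 pluripotency markers in fx/fx and 2 to 4 in null, and 1 to 2 of 4 neural crest markers in fx/fx and 0 to 2 in null. The lowest value of every range was in pair 4. Neural markers numbered 5 and 4 in 4_1, 4 and 3 in 4_C2, 6 and 5 in 6_1, and 6 and 6 in 6_C4. Mesoderm markers numbered 5 and 2, 2 and 1, 4 and 5, and 4 and 4 in that order. Every pair 6 library of either genotype had 3 endoderm, 4 pluripotency and 2 neural crest markers. Fabp7, Sox10, Tfap2a and Esrrb had none in any library. In these bulk samples, fewer cells of a type and less acetylation per cell cannot be told apart, and the part of cell composition in the results was not tested.

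The start sequences of Rfx4, Rtn1 and Rtn4rl2 are shown because peaks there were in fx/fx libraries alone or differed between starts of a gene, and that of Nes because it was marked in every library. The table of RefSeq starts used here (GRCm38.p6, whose primary sequence is mm10) gave 11 starts for 7 of the 10 genes and was not matched by Ncam1, Msi1 and Pax3. Each run below is the 250 bases before a start, read 5′ to 3′ on the strand of the gene, with every CpG dinucleotide in capitals. Rfx4 is chr10:84755798-84756047 on the plus strand. The outer Rtn1 start is chr12:72409055-72409304 and the inner one chr12:72236728-72236977, both on the minus strand and 172327 bp apart. Rtn4rl2 is chr2:84886693-84886942 on the minus strand and Nes chr3:87970843-87971092 on the plus strand.
Rfx4 start: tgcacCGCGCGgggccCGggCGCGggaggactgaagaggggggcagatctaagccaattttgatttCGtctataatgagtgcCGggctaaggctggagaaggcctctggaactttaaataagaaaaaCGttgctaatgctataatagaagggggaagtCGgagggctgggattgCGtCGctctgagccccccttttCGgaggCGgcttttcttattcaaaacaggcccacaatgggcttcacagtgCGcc
Rtn1 outer start: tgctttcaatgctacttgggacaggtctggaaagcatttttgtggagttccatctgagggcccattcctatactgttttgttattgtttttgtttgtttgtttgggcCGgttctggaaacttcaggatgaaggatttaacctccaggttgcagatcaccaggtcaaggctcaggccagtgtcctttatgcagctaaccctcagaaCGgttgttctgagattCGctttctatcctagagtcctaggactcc
Rtn1 inner start: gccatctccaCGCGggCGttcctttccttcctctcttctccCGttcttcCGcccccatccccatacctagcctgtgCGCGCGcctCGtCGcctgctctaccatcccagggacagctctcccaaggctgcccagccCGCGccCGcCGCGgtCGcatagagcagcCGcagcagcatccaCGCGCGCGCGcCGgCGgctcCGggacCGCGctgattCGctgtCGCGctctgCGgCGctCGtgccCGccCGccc
Rtn4rl2 start: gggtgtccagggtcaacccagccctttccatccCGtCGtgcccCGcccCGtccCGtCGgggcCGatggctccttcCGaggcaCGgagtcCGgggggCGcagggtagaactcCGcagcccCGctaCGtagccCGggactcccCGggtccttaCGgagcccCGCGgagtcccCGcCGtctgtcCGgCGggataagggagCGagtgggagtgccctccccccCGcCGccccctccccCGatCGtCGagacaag
Nes start: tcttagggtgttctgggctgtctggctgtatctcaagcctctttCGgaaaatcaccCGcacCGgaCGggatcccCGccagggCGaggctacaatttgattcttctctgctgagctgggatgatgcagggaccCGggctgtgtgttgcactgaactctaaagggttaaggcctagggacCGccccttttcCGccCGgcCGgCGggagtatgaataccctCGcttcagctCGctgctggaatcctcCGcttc

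The starts differed widely in CpG content. In the window of 300 bases that adds the 50 bases after the start, the inner Rtn1 start had 43 CpG, Rtn4rl2 35, Rfx4 20 and Nes 18. The outer Rtn1 start had 3, and a further Rtn1 start, 981 bp from the inner one, had 8. A further Rfx4 start, 82100 bp into the gene, had 3 and no peak in any library. The median over 21254 windows of protein-coding genes was 13, and 18.1% of windows had fewer than the outer Rtn1 start. Among the other members Sox1 had 37, Pou3f2 24, and Pax6 18 and 16 at its 2 starts. Among all genes, the median CpG count of the richest start was 3 where no library had a peak at a start (6519 genes), 16 with a peak in 1 to 7 libraries (2705 genes) and 24 with a peak in 8 (8261 genes). The E-box CACGTG, which Myc proteins can bind, was in 0 of the 11 member windows and in 7.84% of all windows, both strands counted. The GC box GGGCGG was in 6 of 11 and in 46.2% of all, CCAAT in 5 of 11 and in 38.2%, and TATAAA in 0 of 11 and in 12.6%. A match or its lack describes these letters only and is no measure of factor binding.

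At the gene ends, 7 of the 10 members had a peak in more fx/fx than null libraries, and 2 (Msi1 and Rtn4rl2) in more null libraries. Among 13618 genes with an end peak in at least 1 library, 16.3% had it in more fx/fx libraries and 5.19% in more null libraries, and the members were chosen for such contrasts. An uneven end, with a peak in 1 to 7 libraries, was found for 9 members and 27.2% of those genes, and an end marked in all 8 for Nes and 72.8%. All 4 fx/fx libraries and no null library had the peak at Rfx4 and Rtn1, as at 0.0734% of those genes, which is 10 in all. The reverse was found for 0 genes (0%). Covered length did not overlap between genotypes at Rfx4 and Rtn1, with fx/fx higher, as at 2.09% of genes. In the order 4_1 replicates 1 and 2, 6_1 replicates 1 and 2, 4_C2 replicates 1 and 2, 6_C4 replicates 1 and 2, the number of members with an end peak was 7, 6, 9, 7, 3, 2, 5 and 5. In the same order, the share of all protein-coding genes with an end peak was 55.5%, 51.6%, 59.0%, 57.7%, 53.7%, 47.5%, 57.1% and 56.3%. The part of list length in these counts was not tested.

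**Figure D1:**
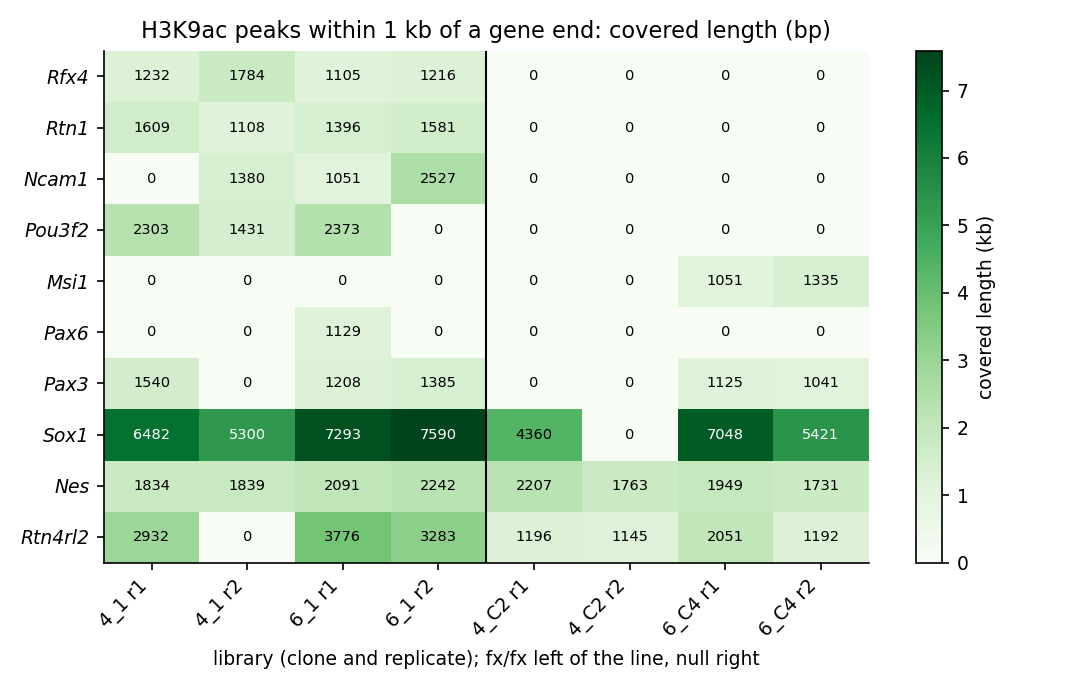
Base pairs covered by H3K9ac peaks at the ends of each of the 10 genes (rows) in each of the 8 libraries (columns), with the value printed in bp in each cell and the colour scale in kb. Rfx4 and Rtn1 are filled in the 4 fx/fx columns alone, Nes is filled in all 8, and Msi1 has values only in the 2 libraries of clone 6_C4.

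The transcription factor genes came first. Rfx4 encodes a winged-helix factor needed for patterning of the dorsal neural tube and for cilia. Its region at the start (chromosome 10, 84754651 to 84756797) covered 1232 and 1784 bp in clone 4_1 and 1105 and 1216 bp in clone 6_1, and no peak was listed in any null library. The genotypes did not overlap. Of the 4 fx/fx peaks, 3 stopped short of the listed start, by 166, 134 and 144 bp, and the peak of 4_1 replicate 2 ran across it to 749 bp downstream. A second region inside the gene (84759731 to 84761167) began 3683 bp downstream of that start and had the other tilt. There the fx/fx libraries had one peak of 1232 bp, in 4_1 replicate 1, and the null libraries had peaks of 1073 bp in 4_C2 replicate 1 and of 1243 and 1050 bp in clone 6_C4. Every fx/fx library thus had a peak at one or other Rfx4 region, and 3 of 4 null libraries did, with the null peaks all downstream. Both regions were narrow, with a median rank of 14.7% and 14.1% among the peak widths of their own lists.

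Pou3f2 encodes a POU-domain factor of neural progenitors and upper-layer neurons, also called Brn2. The region over its start (chromosome 4, 22486746 to 22488516) covered 1170 and 1431 bp in clone 4_1 and 1419 bp in 6_1 replicate 1. It was absent from the list of 6_1 replicate 2 and from all null lists, so the genotypes overlapped at 0. Just upstream, a region at the end of the lncRNA gene Gm30731 (22489035 to 22490550) had peaks in 4_1 replicate 1 (1133 bp), 6_1 replicate 1 (954 bp) and, among null libraries, 4_C2 replicate 1 (1131 bp). That null peak lay 54 bp beyond the window of 1000 bp, so it did not count at the gene end, while the peak of 6_1 replicate 1 reached 140 bp into it.

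Pax6 encodes a paired homeodomain factor of the eye and of forebrain and spinal cord progenitors. At its ends only 6_1 replicate 1 had a peak, of 1129 bp, beginning 346 bp after the left-hand start. The marking of the gene lay elsewhere, in a region inside it that began 5408 bp from that start (chromosome 2, 105674304 to 105677768) and was found in all 8 libraries. It covered 3424 and 2936 bp in clone 4_1, 2761 and 3263 bp in 6_1, 1637 and 1308 bp in 4_C2, and 1334 and 3099 bp in 6_C4. Below every fx/fx library lay 3 null libraries, and 6_C4 replicate 2 lay within the fx/fx range. The mean was 3096 ± 302 bp for fx/fx and 1844 ± 850 bp for null (SD, n = 4 each). Relative to the median width of each library, the log2 difference null minus fx/fx was -0.70 ± 0.23 (SE), given as a description. The neighbouring lncRNA genes Paupar and Pax6os1 each had a peak in 6_1 replicate 1 alone, and that of Pax6os1 is the same peak as at the Pax6 end.

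Pax3 encodes a paired homeodomain factor of the dorsal neural tube and neural crest. Its right end (chromosome 1, 78195836 to 78197430) was covered over 1540 bp in 4_1 replicate 1, 1208 and 1385 bp in 6_1, and 1125 and 1041 bp in 6_C4. All 4 libraries of pair 6 had the peak, against 1 of 4 in pair 4. The peaks of the null clone 6_C4 were each narrower than those of 6_1. A region further inside (78188978 to 78190327) was marked in 4_1 replicate 1 (1350 bp) and 6_1 replicate 2 (1164 bp) and in no null library.

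Sox1 encodes a SoxB1 factor that is among the earliest markers of neuroectoderm. It had the largest mean covered length of the 10 genes at its ends in both genotypes, and one region lay over its start and most of the gene (chromosome 8, 12393873 to 12399475). That region covered 4629 and 5300 bp in clone 4_1, 4966 and 5448 bp in 6_1, 4360 and 1213 bp in 4_C2, and 4950 and 5421 bp in 6_C4. The other 7 libraries lay between 4360 and 5448 bp, and 4_C2 replicate 2 was far below them. Its peak was inside the gene and 254 bp outside the windows, which is why the gene ends show 0 for that library. A region 8715 bp upstream of the start, near an end of the lncRNA gene Sox1ot, was marked in every fx/fx library (1620 to 2390 bp). It was also marked in both 6_C4 libraries (2145 and 1265 bp) and in neither 4_C2 library. Another region, past the gene (12400135 to 12402533) was in 3 fx/fx libraries and in both 6_C4 libraries.

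**Figure D2:**
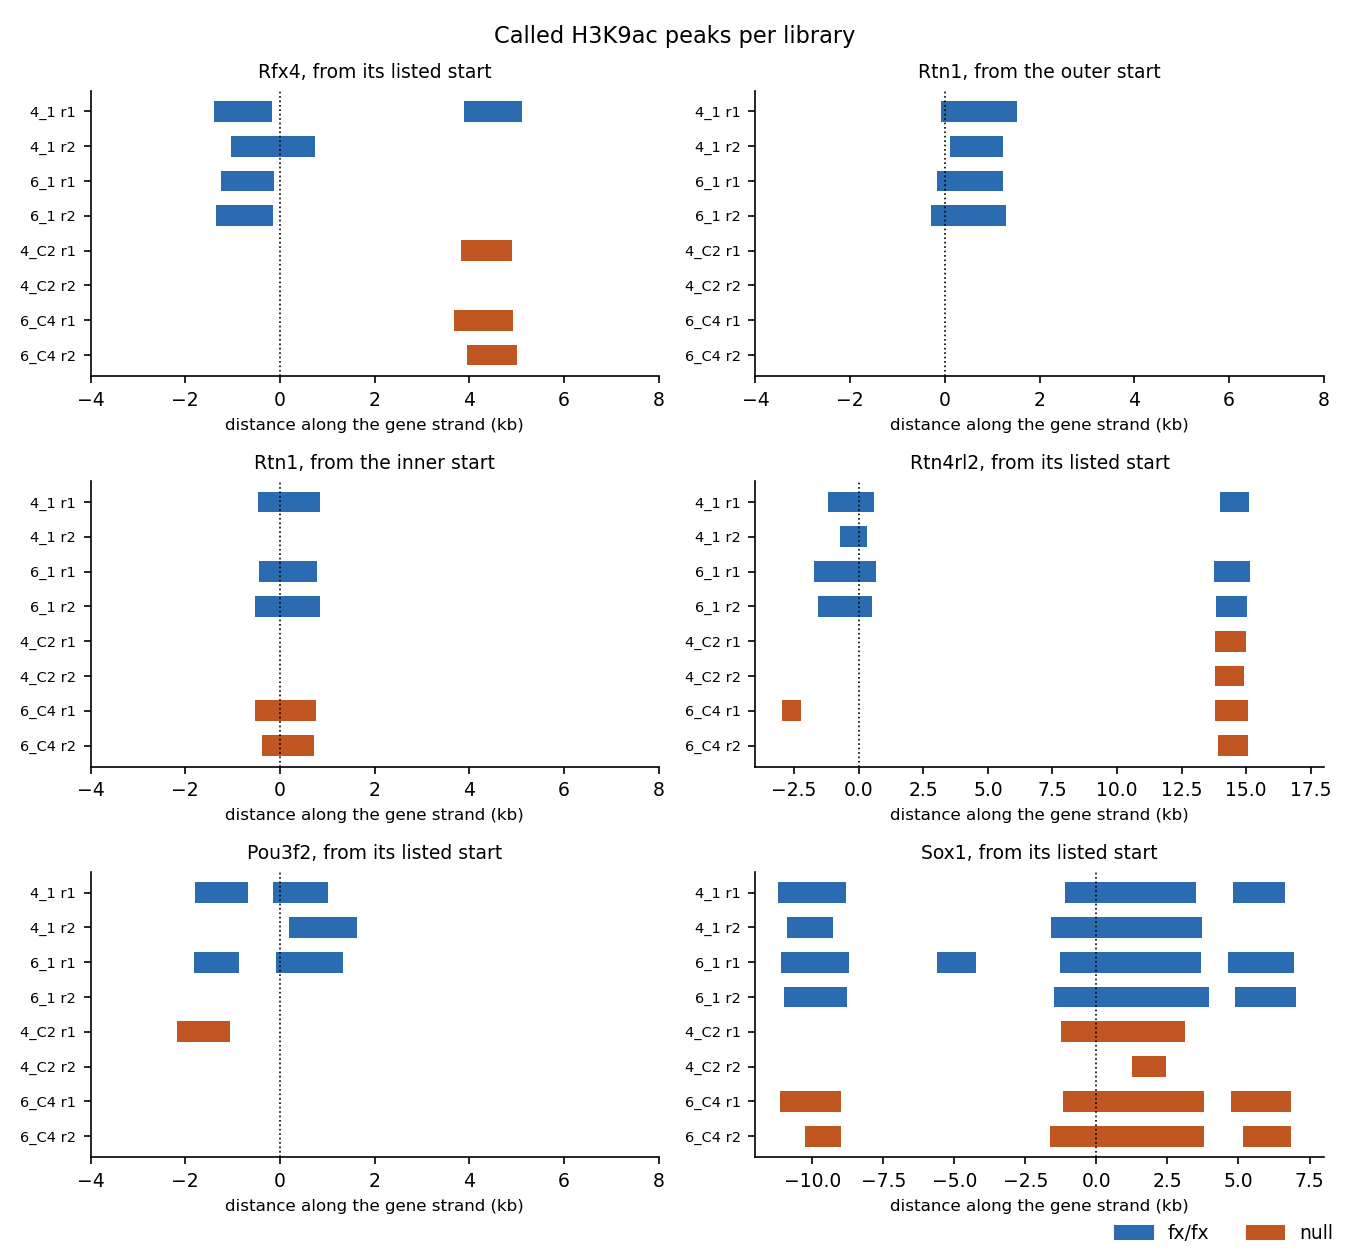
Peaks of each library (rows; fx/fx blue, null orange) along 5 genes, with distance from a listed start along the strand of the gene in kb (dotted line at 0; the span differs between panels). Peaks at the Rfx4 start, the outer Rtn1 start and the Rtn4rl2 start are in the 4 fx/fx rows alone, while the inner Rtn1 start and the region downstream in Rtn4rl2 also have null peaks.

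Genes for proteins of the membrane and cell surface followed. Rtn1 encodes a reticulon, a membrane protein of the endoplasmic reticulum abundant in neurons and neuroendocrine cells, and its transcripts begin at starts far apart. At the outer start (chromosome 12, 72407529 to 72409344) peaks covered 1609 and 1108 bp in clone 4_1 and 1396 and 1581 bp in 6_1, and none was listed in a null library. At the inner start (72235877 to 72237262) peaks covered 1302 bp in 4_1 replicate 1, 1232 and 1372 bp in 6_1, and 1302 and 1097 bp in 6_C4. The genotypes were separate at the outer start and overlapped at the inner one. Clone 6_C4 thus had peaks at the CpG-rich inner start and none at the CpG-poor outer start, and clone 4_C2 had neither. The inner start lies outside the gene-end windows and does not enter the gene-end values.

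Rtn4rl2 encodes a receptor of the Nogo receptor family, held on the surface of neurons by a lipid anchor. By gene ends it seemed to favour the null libraries, with a peak in 4 of 4 null and 3 of 4 fx/fx. That count comes from the end of the gene (chromosome 2, 84871554 to 84872923), where the null libraries covered 1196, 1145, 1299 and 1192 bp and the fx/fx libraries 1151, 1370 and 1194 bp, with none in 4_1 replicate 2. At the listed start (84886030 to 84888435) the pattern was the opposite. Peaks there covered 1781 and 1038 bp in clone 4_1 and 2406 and 2089 bp in 6_1, and no null library had one. The mean was 1828 ± 586 bp in fx/fx (SD, n = 4). All 4 peaks ran across the start, reaching 714 to 1743 bp upstream and 323 to 662 bp downstream. The peak of 4_1 replicate 2 missed the window on the annotated right end by 235 bp, and a peak of 752 bp in 6_C4 replicate 1 lay 2225 bp upstream of the start.

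With windows of 1000 bp on RefSeq starts, 6 of the 7 members with a listed start had a peak in more fx/fx libraries (15.1% of 10968 genes) and 0 in more null libraries (4.39%). Rfx4 and Rtn4rl2 had it in every fx/fx library and no null library, as did 0.0912% of genes. Rtn1 left the count because its starts were pooled and the inner one had null peaks. For Pou3f2, Pax6, Sox1, Nes and Rtn1 a listed start is also an annotated gene end. The marked Rfx4 start had the same values as the left end of that gene. At Rtn4rl2, the start peaks of 1781, 2406 and 2089 bp also counted in the window on the right end. The members were thus chosen on largely the same windows, and these start counts are a description and no further result. Each list was then shortened to its 12041 widest peaks, the length of the shortest list. Rtn4rl2 kept its start peak in all 4 fx/fx lists and had none in the null lists, a pattern held by 0.0501% of 9983 genes. Its peak in 4_1 replicate 2 was only just kept, at 1038 bp where the shortest peak kept was 1034 bp. The others fell back: in these equal-length lists the Rfx4 start was marked in 1 fx/fx library and the outer Rtn1 start in 2, both in 0 null libraries. The narrowest peak kept ranged from 307 bp in 4_C2 replicate 2 to 1686 bp in 6_1 replicate 2, so narrow peaks were lost mainly from the longer lists.

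Ncam1 encodes the neural cell adhesion molecule, an immunoglobulin-family protein through which neural cells bind each other. The region at its right end (chromosome 9, 49796473 to 49799001) covered 1380 bp in 4_1 replicate 2, and 1051 and 2527 bp in 6_1. Neither 4_1 replicate 1 nor any null library had it. It was the only region within 10000 bp of this gene or inside it, although the gene spans 297265 bp. In equal-length lists it was in 2 fx/fx and 0 null libraries.

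The remaining members encode proteins inside the progenitor cell. Nes encodes nestin, the intermediate filament of neural progenitors. Its start region (chromosome 3, 87970219 to 87972811) covered 1834 and 1839 bp in clone 4_1, 2091 and 2242 bp in 6_1, 2207 and 1763 bp in 4_C2, and 1949 and 1731 bp in 6_C4. The genotypes overlapped throughout, with a mean of 2002 ± 200 bp for fx/fx and 1912 ± 219 bp for null (SD, n = 4 each). Every peak ran across the start. The next gene, Bcan, which encodes the brain proteoglycan brevican, had a peak at its end (87987000 to 87988797) in 4_1 replicate 1 (1469 bp) and in 6_1 (1093 and 1734 bp), and in no null library.

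Msi1 encodes Musashi 1, an RNA-binding protein that controls translation in neural progenitors. The gene table gives it a span of 96640 bp, and 11 regions lay in it or within 10000 bp. At the right end, peaks of 1051 and 1335 bp in clone 6_C4 counted, but they reached only 102 and 28 bp into the window, and a peak of 986 bp in 6_1 replicate 1 stopped 173 bp outside it. The count at the ends therefore turned on a few base pairs of the window. Inside the span, 3 regions were marked in all 8 libraries, at 38685, 69475 and 76230 bp from the left end. The broadest of them (chromosome 5, 115428534 to 115432278), at an end of the lncRNA gene A930005G22Rik, covered 3745 and 2725 bp in clone 4_1, 2555 and 2640 bp in 6_1, 2748 and 2652 bp in 4_C2, and 2804 and 2674 bp in 6_C4. The other 7 libraries were between 2555 and 2804 bp, and 4_1 replicate 1 was above them. Msi1 had no entry in the table of RefSeq starts, so whether this region or another lies at one of its starts is not known here. One more region (115403403 to 115405308) did differ: it was covered over 1173, 813, 1790 and 1818 bp in the fx/fx libraries and, among null libraries, over 1388 bp in 4_C2 replicate 1 alone.

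**Figure D3:**
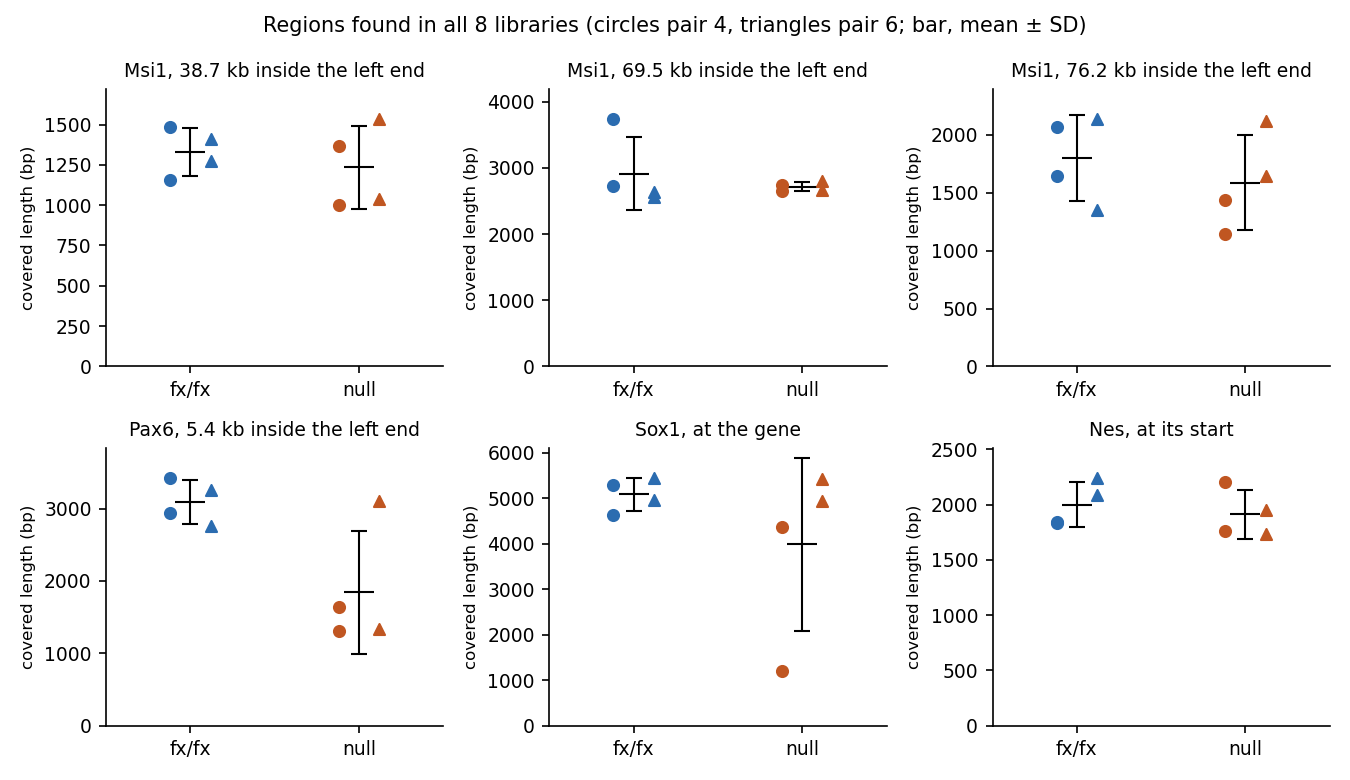
Covered length in bp (vertical axis, from 0) of 6 member regions found in all 8 libraries, by genotype, with 1 symbol per library (circles pair 4, triangles pair 6) and mean ± SD over 4 libraries. The Nes and Msi1 regions overlap between genotypes, 3 null libraries lie below all fx/fx libraries at Pax6, and 4_C2 replicate 2 stands at 1213 bp at Sox1.

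Across all members, peaks merged when they overlapped gave 39 regions inside the genes or within 10000 bp of them. Of these, 7 were in all 8 libraries, 20 in 2 to 7 and 12 in 1 library. More fx/fx than null libraries had the region at 22 of them and more null libraries at 8. Over all 26034 regions of the series these shares were 31% and 17.7%. Outside the gene-end windows, the counts were 5 and 4 of 14 regions inside genes and 8 and 1 of 11 in the flanks. In regions of 2 to 7 libraries they were 15 and 3 of 20, beside 47.9% and 17.5% over all such regions. The regions at the Rfx4, outer Rtn1 and Rtn4rl2 starts were 3 of the 17 regions (0.0653%) that every fx/fx library and no null library had. All 3 overlap gene-end windows, on which the members were chosen, so these counts are a description. Regions in fewer libraries had narrower peaks, as over the whole series. The median member peak was 1103.5 bp wide in regions of 1 library, 1242 bp in regions of 2 to 7 and 2069 bp in regions of all 8, and the median width over all such regions was 1103, 1343 and 2302 bp. Within their own lists the member peaks stood at a median rank of 8.65%, 20.6% and 56.7% from the narrowest. Among the uneven ones, those at Sox1ot (59.9%), past Sox1 (53.1%) and at the Rtn4rl2 start (48.9%) ranked higher. Regions in 1 library were in fx/fx at 7 and in null at 5, beside 55.0% and 45.0% over all regions in 1 library. By library, the 39 regions were found 23, 16, 27 and 24 times in the fx/fx lists and 14, 8, 17 and 19 times in the null lists, in the order of clones and replicates used above. In that order the whole lists held 15315, 13260, 20809 and 18477 peaks for fx/fx and 14947, 12041, 18932 and 17849 for null.

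**Figure D4:**
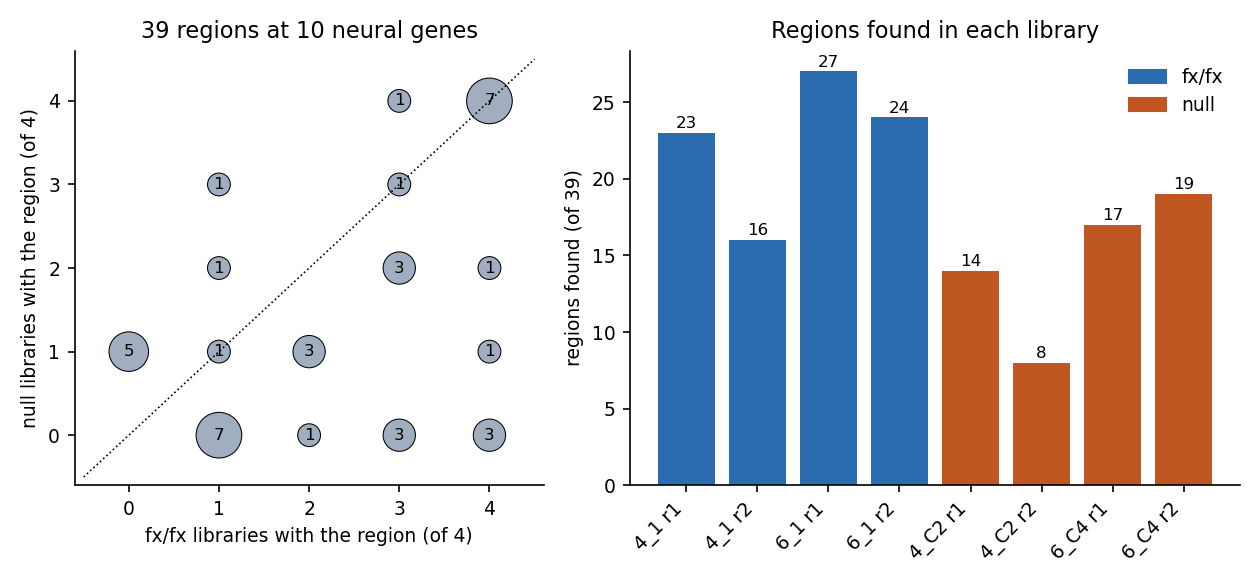
Left, the 39 member regions by the number of fx/fx (horizontal) and null (vertical) libraries that had them, with the count of regions printed in each circle (larger circles, more regions) and a dotted line at equal numbers; right, regions found in each library (bars from 0). Below the line lie 22 regions and above it 8, and the library counts run from 8 in 4_C2 replicate 2 to 27 in 6_1 replicate 1, and 14 in 4_C2 replicate 1 and 16 in 4_1 replicate 2 are close.

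Peaks were also compared between the isolate pairs. The members were chosen on gene-end values in each clone, so pair values at gene ends are given as a description. There, 6 members had a peak in more libraries of pair 6 (Ncam1, Msi1, Pax6, Pax3, Sox1 and Rtn4rl2) and 1 in more of pair 4 (Pou3f2). Among all genes with an end peak these shares were 22.6% and 2.47%. Covered length did not separate the pairs at any member, while 27.9% of all such genes were higher throughout pair 6 and 0.257% throughout pair 4. Members with no end peak in any null library (Rfx4, Rtn1, Ncam1, Pou3f2 and Pax6) could not separate the pairs by this rule. Region width was tested with limma on log2 covered length, each library centred on its median, over the 10171 regions in all 8 lists. With genotype as a covariate, 695 regions (6.83%) passed at a Benjamini-Hochberg adjusted p of 0.05: 439 were wider in pair 6 (4.32%) and 256 narrower (2.52%). Without centring the split was 2724 wider and 22 narrower, and the median over all regions moved from -0.02 to 0.25.

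Of the 7 member regions in all 8 lists, those at Sox1 and Nes lie at gene ends and are not tested here. None of the other 5 passed. The lowest adjusted p was at the broadest Msi1 region, with a log2 difference (pair 6 minus pair 4) of -0.40 ± 0.11 (SE) and an adjusted p of 0.0593 by limma. By limma it passed without 4_C2 replicate 1, at -0.48 (adjusted p = 0.0492). It did not pass without 4_1 replicate 1, at -0.30 (0.112), or without centring, at -0.14 (0.367). The other Msi1 differences were -0.19 ± 0.13 for the region 38685 bp from the left end (adjusted p = 0.366 by limma) and -0.05 ± 0.17 for that at 76230 bp (0.883). Pax6 differed by -0.07 ± 0.23 (0.89). Without centring these 3 turned positive, at 0.07, 0.21 and 0.20. The region left of Msi1, at an end of the cytochrome oxidase gene Cox6a1, differed by 0.15 ± 0.10 (adjusted p = 0.381 by limma) and passed without centring, at 0.41 (0.0434). All p-values here measure only how these 8 libraries spread, which may be technical.

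Whether the genotype difference changed between the pairs was tested as an interaction over the same regions. At the Pax6 region, which lies outside the gene-end windows, null minus fx/fx was -0.97 in pair 4 and -0.44 in pair 6 on the log2 scale, a difference of 0.53 ± 0.46 (SE, adjusted p = 0.889 by limma). That difference was 1.16 without 6_C4 replicate 1 and -0.09 without 6_C4 replicate 2, with neither past the threshold. At the Msi1 region 76230 bp from the left end it was 0.64 ± 0.29 (adjusted p = 0.751 by limma). At Sox1, given with no test, null minus fx/fx was -0.96 in pair 4 and 0.12 in pair 6. The pair 4 value was -0.18 without 4_C2 replicate 2 and -1.75 without 4_C2 replicate 1. Over all 10171 regions limma called 0, with 677 at an unadjusted p under 0.05. In data simulated for this interaction over 10171 regions, limma recovered 23 of 100 true changes of 2-fold and 87 of 100 of 4-fold, so a 2-fold difference between pairs would mostly not be detected with these libraries.

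Relatives and functional partners of the members were counted by the same gene-end rule, leaving the members out. Of 23 other neuronal genes, 9 had no peak in any library, 1 had a peak in all 8, 10 in more fx/fx libraries and 0 in more null libraries. The median difference in number of libraries (null minus fx/fx) was -1 among those with a peak and 0 over all genes. Nefm, a neurofilament gene, had peaks of 1541 and 1292 bp in 4_1, 1348 and 1929 bp in 6_1 and 1487 bp in 6_C4 replicate 1. Of 35 other neural tube transcription factors, 12 were marked in all 8 libraries, 12 in more fx/fx and 3 in more null, with a median difference of 0. Dmbx1, a homeobox gene of the midbrain, was marked in every fx/fx library and in 1 null library. Of 18 other neural progenitor genes, 10 were marked in all 8, 6 in more fx/fx and 0 in more null. Vim, which encodes the filament protein vimentin that assembles with nestin, was marked in 3 fx/fx and 1 null library.

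Families of the members were mixed. Among 11 other genes of the reticulons and the Nogo receptor pathway, 4 were marked in all 8 libraries, 5 in more fx/fx and 0 in more null. Lingo1, a co-receptor of the Nogo receptor, was marked in 4 fx/fx and 2 null libraries, and Ngfr, another partner in that complex, in 3 and 1. Among 7 other Rfx genes, 3 were in more fx/fx libraries and 1, Rfx8, in more null (2 of 4 fx/fx, 4 of 4 null). Among 7 other Pax genes, 3 were in more fx/fx libraries, including Pax5 with 1280 and 1810 bp in clone 6_1 and no other peak. Sox3, a SoxB1 relative of Sox1, had peaks in 4 fx/fx and 2 null libraries, and Pou3f3 in 4 and 3. Of 7 other Ncam and L1 family genes, 1 was in more fx/fx libraries and 0 in more null.

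Marker lists of other fates also had more genes on the fx/fx side. Of 10 pluripotency markers, 7 were marked in more fx/fx and 0 in more null libraries, of 11 mesoderm markers 5 and 0, of 10 endoderm markers 4 and 1, of 9 neural crest markers 3 and 0, and of 9 surface ectoderm markers 3 and 1. The lists overlap in places: Sox2 is both a pluripotency marker and a neural tube factor, and Ngfr both a neural crest marker and a Nogo receptor partner. Of 10 housekeeping genes, 9 were marked in all 8 libraries. Among unevenly marked genes, 59.7% of all genes were in more fx/fx libraries. The share was 76.9% for the other neuronal genes, 60% for the other neural tube factors and 25% for the 4 other Ncam and L1 family genes. It was 71.4% for the mesoderm markers, 66.7% for the endoderm markers and 75% for the surface ectoderm markers. It was 100% for the 7 pluripotency markers, the 3 neural crest markers and the 6 other neural progenitor genes that were uneven. In the same lists, genes with a peak in more pair 6 libraries, and in more of pair 4, were 7 and 0 for pluripotency markers. Mesoderm markers had 5 and 1, endoderm markers 6 and 0, neural crest markers 2 and 0, and surface ectoderm markers 4 and 0. Other neuronal genes had 12 and 1, other neural tube factors 19 and 1, and other neural progenitor genes 4 and 2. All genes had 3080 and 337. Olig2, Pax8 and Nfasc had a peak in every pair 6 library and no pair 4 library. No test was made of these lists.

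**Figure D5:**
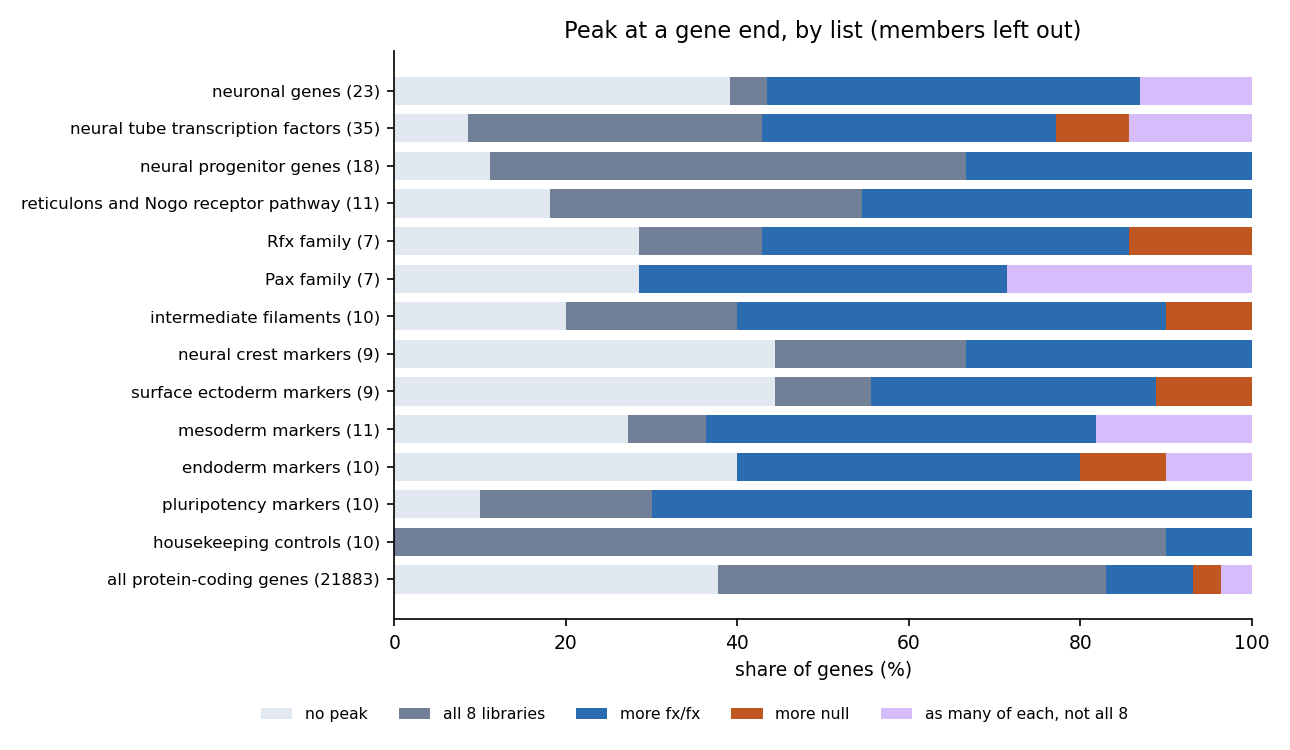
Gene lists without the members (rows) split by the share of listed genes with an end peak in all 8 libraries, more fx/fx, more null, equal numbers, or none (horizontal axis, percent of genes). More genes fall to fx/fx than to null in every list drawn, among them the pluripotency (7 and 0) and mesoderm markers (5 and 0) and all protein-coding genes (2214 and 707).

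Genes with the same presence pattern at their ends over the 8 libraries were ranked by mean absolute difference in covered length. The pattern of Rfx4 was that of 9 other genes, Rtn1 among them. Nearest to Rfx4 was Tha1 (64.1 bp apart), then Pcdh17 (126.2 bp), and nearest to Rtn1 were Tmsb4x (43.3 bp) and Cdh7 (80.4 bp). The pattern of Pou3f2 was shared by 2 genes, Pcdh9 and Olfml2b, that of Ncam1 by 6, led by Ptgs2, and that of Msi1 by 11, led by Lhx9. Commoner patterns held more: 131 genes for Rtn4rl2, 175 for Pax3, 191 for Pax6 and 705 for Sox1. The nearest coding genes of Rfx4 (Ric8b), Ncam1 (Ttc12), Pou3f2 (Fbxl4), Msi1 (Cox6a1), Pax6 (Elp4) and Rtn4rl2 (Slc43a1) each had an end peak in all 8 libraries. That was the commonest pattern, held by 72.8% of genes with an end peak, so it is no particular trait of these neighbours.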

How the data were processed

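H3K9ac peaks were analysed from 8 libraries. The authors deposited 1 list per library, with chromosome, start and end of each peak and no score. Per the submitters' processing notes, the tools were Bowtie 1.1.2 and MACS 1.4.2 and the build was mm10. The threshold and control library of the peak calls were not given in the sources used here. Covered length was the summed width of whole peaks overlapping a window by at least 1 bp, with windows of 1000 bp either side of both gene ends, or of RefSeq starts. The gene table and start sequences were those of GRCm38.p6. Coordinates count from 1. Peaks overlapping by at least 1 bp across libraries were merged into regions. Widths were tested with limma 3.58.1 in R 4.3.3, with Benjamini-Hochberg adjustment at 0.05, and the fits were tried on simulated data (85 of 100 regions changed 2-fold recovered for the pair comparison). Other steps used Python 3.11.15 with pandas 2.3.3 and numpy 2.4.6. The members and lists were chosen with earlier results of these data known. Named list genes were up to 4 per list, those with the largest difference in libraries with a peak between genotypes or pairs, plus genes sharing or neighbouring a member's region, and the 3 genes nearest in pattern to each member were considered. Alternatives were other windows, overlaps, list lengths, merging, centring, covariates and each library left out.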

Additional observations from a re-analysis of the deposited data

Results flagged for a closer look

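In 24 groups of 4 libraries, the highest and lowest values were compared with the rest by Dixon's ratio, which chance alone passes in about 1 group in 20, and 3 groups passed. That rate does not hold for gene-end values, on which the members were chosen. At the Pax6 gene ends, 6_1 replicate 1 had 1129 bp and the other fx/fx libraries 0, a case in which any value above 0 passes. At the Rtn4rl2 gene ends, 6_C4 replicate 1 had 2051 bp, against 1145 to 1196 bp in the other null libraries. At the broadest Msi1 region, 4_1 replicate 1 had 3745 bp, against 2555 to 2725 bp in the other fx/fx libraries.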

How the results depend on the processing

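The number of members with a peak in more fx/fx libraries was 6 or 7 in every alternative (6 of 7 at RefSeq starts). The members were chosen on such values, so this steadiness supports nothing. The genes counted changed: in equal-length lists Pax6 left and Rtn4rl2 entered, and Sox1 left with windows of 2000 or 5000 bp. The number in more null libraries (2) was 1 with windows of 500, 2000 or 5000 bp or an overlap of 200 bp, 0 in equal-length lists and at RefSeq starts, and 1 to 2 with a library left out (1 without 4_1 replicate 2). Leaving out libraries for these 2 counts was chosen after seeing the data. Members in all fx/fx and no null libraries numbered 2, with 1 at 5000 bp (Rtn1), 0 in equal-length lists and 2 to 3 with a library left out (Ncam1 was added without 4_1 replicate 1, Pou3f2 without 6_1 replicate 2). Members whose pairs did not overlap numbered 0, with 1 (Sox1) at 2000 or 5000 bp and 0 to 2 with a library left out (Pax3 and Sox1 without 4_1 replicate 1, Sox1 without 6_C4 replicate 2). The 695 regions differing between pairs by limma became 2746 without centring and 1428 in regions of at least 4 lists. They were 293 to 507 with a library left out, with 452 and 384 without 4_1 replicates 1 and 2, 330 and 342 without 6_1 replicates 1 and 2, and 293 and 360 without 6_C4 replicates 1 and 2. The interaction gave 0 to 1 (1 without 4_C2 replicate 1). A lone library of a clone was assumed to vary like the others. With the replicate number as a block 629 regions differed. Deviations of same-numbered libraries correlated at -0.03 to 0.11 between clones, so the numbers were not taken to pair them. Depth and peak height are unknown, so a missing peak may be a weak one.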
